A study of Mus musculus with 33 samples.

Results

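Populations sorted from the thymus of wild-type C57BL/6 mice at postnatal day 6 and titled mTEC4 and mTEC1 were compared directly, across all genes of the table. The 4 libraries, 2 titled d6 mTEC4 and 2 titled d6 mTEC1, were chosen by their titles from the 33 libraries of a series on how the transcription factor Foxn1 is regulated. Both groups are labelled as thymic epithelial cells (TEC) and share strain, genotype and age, are listed with no engineered allele or treatment, and differ in the labels by the title alone. RNA was read by MARS-seq, a method that counts each captured 3′ end once through its unique molecular identifier (UMI). The labels give neither the surface markers of the sort nor the animals behind each library. The p-values therefore reflect the scatter of the libraries in the fit, embryonic ones included, and that scatter may be technical. These embryonic TEC libraries, 2 titled E15 and 2 titled E17, are numbered by their day of embryonic development, 15 or 17. Their levels are given below for some genes and lists.

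TEC guide the maturation of T cells in the thymus and depend on Foxn1 for their own differentiation. Cortical TEC (cTEC) attract precursors and select them with peptides cut by their own proteases. Medullary TEC (mTEC) use the regulator Aire to make antigens of other tissues, which they show on MHC molecules so that self-reactive T cells are removed. Endothelial cells, pericytes and fibroblasts form the vessels and the scaffold around them.

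The libraries held 385781 and 287189 UMIs in d6 mTEC4, against 638343 and 570253 UMIs in d6 mTEC1. The replicates of each group differed by more than counting noise: the chi-square over its degrees of freedom was 3.76 in d6 mTEC4 and 3.74 in d6 mTEC1. The correlation of log2 values between replicates, taken across genes, was 0.776 in d6 mTEC4 and 0.875 in d6 mTEC1. Levels are given as CPM, UMIs per 1000000 UMIs of the library, for replicate 1 and then replicate 2. A gene with no UMI in either library of a group may still be present at up to 4.46 CPM in d6 mTEC4 and 2.48 CPM in d6 mTEC1, the levels of 3 UMIs over the group, which covers counting error only.

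The titles were set against cell type markers. Epcam, the adhesion molecule that defines epithelial cells, stood at 114 and 122 CPM in d6 mTEC4 and at 169 and 128 CPM in d6 mTEC1, so both groups contained epithelial RNA. In a published numbering of mTEC the Aire stage is the second and tuft cells, the chemosensory cells of the medulla, are the fourth type. Whether the titles follow it is not stated. Against that numbering, Aire was abundant in the libraries titled mTEC1. The 20 tuft genes summed to 158 and 226 CPM in d6 mTEC4, 186 and 258 CPM in d6 mTEC1, and 7173 and 4471 CPM in the libraries titled d6 mTEC2. Trpm5, the ion channel that defines tuft cells, stood at 0 and 3.48 CPM in d6 mTEC4 and at 7.83 and 29.8 CPM in d6 mTEC1, too few UMIs to be tested. The groups are therefore called by their titles, with no cell type implied.

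Of 10710 genes tested, 36 were higher and 79 were lower in d6 mTEC4 than in d6 mTEC1 (limma, Benjamini-Hochberg adjusted p below 0.05). These are 0.336% and 0.738% of the genes tested, or 1.07% together. The 36 higher genes had a median log2 change of 3.0 and a range of 1.43 to 6.33. The 79 lower genes had a median of -4.0 and a range of -6.18 to -1.30, and the median over all genes tested was -0.10. No called gene overlapped between the groups, but neither did 45.5% of all genes tested, 19.9% higher and 25.6% lower in d6 mTEC4, so a gap between 2 and 2 libraries is a weak criterion on its own. Among the lower genes, 34 of 79 had no UMI in either d6 mTEC4 library, while 1 of the 36 higher genes had none in d6 mTEC1.

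The number of calls depended on the fit. The 4 embryonic TEC libraries of the same series entered it to share the estimate of the spread. The d6 mTEC4 and d6 mTEC1 libraries alone gave 67 calls, 43 higher (0.433% of the genes tested) and 24 lower (0.241%), of which 49 were shared with the 115. The edgeR quasi-likelihood test on the UMIs gave 153 higher (2.2%) and 148 lower calls (2.13%), of which 102 were shared. Leaving out d6 mTEC4 replicate 1 gave 858 calls and leaving out its replicate 2 gave 511. Without d6 mTEC1 replicate 1, and likewise without replicate 2, limma gave 0 calls, with 676 and 526 genes at an unadjusted p below 0.05. That loss holds for every limma call given here. Of 41 named genes that passed, 29 also passed without the embryonic libraries. Adgrl4, Emcn, Arhgef15, Fam167b, Depp1, Id3, Tbata, H2-DMb2, Apoc3, Fam25c, Sncg and Ucma did not. Adding the libraries titled d6 mTEC2 to the fit left 4 calls, Aire and H2-Eb2 among them. The fits without E17 replicate 1 and 2 gave 56 and 58 calls.

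**Figure D1:**
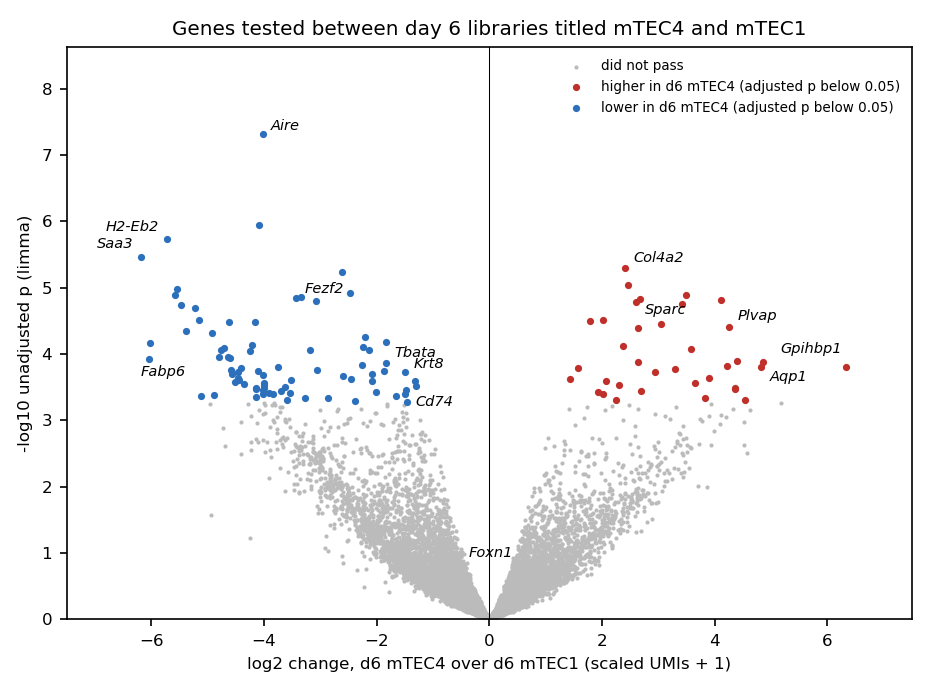
Each point is 1 of 10710 genes, placed by its log2 change of d6 mTEC4 over d6 mTEC1 and by its -log10 unadjusted limma p, with 36 higher genes in red and 79 lower genes in blue. Aire has the smallest p among all genes, Gpihbp1 lies farthest to the right, and Foxn1 lies among the grey genes that did not pass.

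Genes of endothelial cells, which line blood vessels, were among those that rose in d6 mTEC4. Of 30 endothelial markers present, 26 were tested, and 5 of them rose: Gpihbp1, Aqp1, Plvap, Emcn and Ly6c1. None fell, and of all genes tested 0.336% rose and 0.738% fell. The median log2 change was 3.24, against -0.10 over all genes tested, and 26 of 26 members had a change above 0, as did 44.8% of all genes tested. In 24 of 26 both d6 mTEC4 libraries lay above both d6 mTEC1 libraries, against 19.9% of all genes tested. Since 12 of the 26 passed the filter on low values only through their level in d6 mTEC4, these figures describe the list and add no support to it.

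Gpihbp1 (chromosome 15, 75596628 to 75599481, plus strand, GRCm38) holds lipoprotein lipase on the capillary wall and is made by capillary endothelium. It stood at 1343 and 818 CPM in d6 mTEC4, against 3.13 and 33.3 CPM in d6 mTEC1. The d6 mTEC4 libraries were both high and far from the other group, though the d6 mTEC1 libraries also differed from each other. The log2 change was 6.33 (SE 1.22, limma adjusted p = 0.0309). Plvap (chromosome 8, 71497765 to 71511752, minus strand) forms the diaphragms of endothelial pores. It stood at 503 and 352 CPM in d6 mTEC4 and at 23.5 and 17.5 CPM in d6 mTEC1, with no overlap and a log2 change of 4.26 (SE 0.71, limma adjusted p = 0.0153). Aqp1, a water channel of vessels, stood at 819 and 641 CPM in d6 mTEC4 and at 11 and 47.3 CPM in d6 mTEC1. Its log2 change of 4.86 passed at a limma adjusted p of 0.0289. Ly6c1, a surface protein of capillary endothelium with a near-identical neighbour that could share its reads, stood at 480 and 230 CPM in d6 mTEC4 and at 29.8 and 22.8 CPM in d6 mTEC1 (log2 change 3.59, limma adjusted p = 0.0226).

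Emcn, which codes for the endothelial sialomucin endomucin, stood at 31.1 and 76.6 CPM in d6 mTEC4 and at 0 and 1.75 CPM in d6 mTEC1. The d6 mTEC1 level rests on 1 UMI, and the ratio of the pooled levels was 61.1, with an exact 95% counting interval of 10.2 to 2482 (limma adjusted p = 0.0394). Adgrl4, an adhesion receptor of angiogenic endothelium, stood at 28.5 and 80.1 CPM in d6 mTEC4 and had no UMI in d6 mTEC1. It was at least 20.4-fold higher (limma adjusted p = 0.0309). Cd93, a receptor of endothelial cells and some myeloid cells, stood at 218 and 157 CPM in d6 mTEC4 and at 9.40 and 5.26 CPM in d6 mTEC1. The remaining genes among the 12 largest rises were Fam167b, Arhgef15, Cavin2, Tmem88, Depp1 and Cd300lg. Cavin2 builds caveolae and Tmem88 is an inhibitor of Wnt signalling. Tmem88 stood at 373 and 212 CPM in d6 mTEC4 and at 11 and 19.3 CPM in d6 mTEC1 (log2 change 4.11, limma adjusted p = 0.0102). All 12 had both d6 mTEC4 libraries above both d6 mTEC1 libraries, as the rule for naming them requires.

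The 21 endothelial genes that did not pass included defining ones. Pecam1, the CD31 antigen, stood at 308 and 188 CPM in d6 mTEC4 and at 58.0 and 28.1 CPM in d6 mTEC1 (log2 change 2.52, limma adjusted p = 0.0982). Kdr, a receptor for vascular endothelial growth factor, stood at 104 and 80.1 CPM in d6 mTEC4 and at 0 and 7.01 CPM in d6 mTEC1. Cdh5, the cadherin of endothelial junctions, stood at 150 and 125 CPM in d6 mTEC4 and at 4.70 and 28.1 CPM in d6 mTEC1 (log2 change 3.33, limma adjusted p = 0.0897). In these 3 genes both d6 mTEC4 libraries lay above both d6 mTEC1 libraries. Vwf, the clotting factor of endothelial granules, stood at 33.7 and 38.3 CPM in d6 mTEC4 and at 50.1 and 10.5 CPM in d6 mTEC1, and the groups overlapped. Lyve1 and Prox1, which mark lymphatic endothelium, had no UMI in any of the 4 libraries.

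Summed over the list, endothelial genes made up 7268 and 4962 CPM in d6 mTEC4 and 630 and 565 CPM in d6 mTEC1. The d6 mTEC4 mean was 10.2 times the d6 mTEC1 mean. The embryonic libraries lay between 66 and 185 CPM, so the d6 mTEC1 libraries stood above them too. The libraries titled d6 mTEC2 held 3388 and 11360 CPM and bracketed d6 mTEC4. The level was thus not particular to the d6 mTEC4 title. In bulk RNA, fewer cells of a type and less RNA per cell cannot be told apart. The part of endothelial RNA in the lower level of epithelial genes described below was not tested.

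Promoter sequence is shown for a pair of endothelial genes that rose. Endothelial genes are widely bound by ETS family factors, whose core was searched as AGGAAG on both strands in the 300 bases around each start in RefSeq (GRCm38.p6). Capitals mark the matches.
Emcn, chr3:137340828-137341127, plus strand: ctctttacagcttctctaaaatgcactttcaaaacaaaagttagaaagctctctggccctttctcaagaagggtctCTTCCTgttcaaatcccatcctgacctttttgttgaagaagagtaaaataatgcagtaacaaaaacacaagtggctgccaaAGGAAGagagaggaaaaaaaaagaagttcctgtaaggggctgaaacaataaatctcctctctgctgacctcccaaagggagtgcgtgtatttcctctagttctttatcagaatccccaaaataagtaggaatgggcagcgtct
Aqp1, chr6:55336049-55336348, plus strand: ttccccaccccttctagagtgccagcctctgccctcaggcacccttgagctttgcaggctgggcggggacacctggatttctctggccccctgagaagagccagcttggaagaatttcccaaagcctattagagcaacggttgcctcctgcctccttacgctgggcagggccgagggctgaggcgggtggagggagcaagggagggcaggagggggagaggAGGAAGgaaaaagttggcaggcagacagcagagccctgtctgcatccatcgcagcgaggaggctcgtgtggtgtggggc
The Emcn window held 2 matches and the Aqp1 window 1. Of the 28 promoters found for 22 of the 36 higher genes, 14 (50.0%) held the letters. They were also in 28 of 86 (32.6%) promoters of the lower genes, 33.3% of promoters of all genes tested and 35.4% of all 32851 promoters in the table. A match is a description of the letters and not a bound site.

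**Figure D2:**
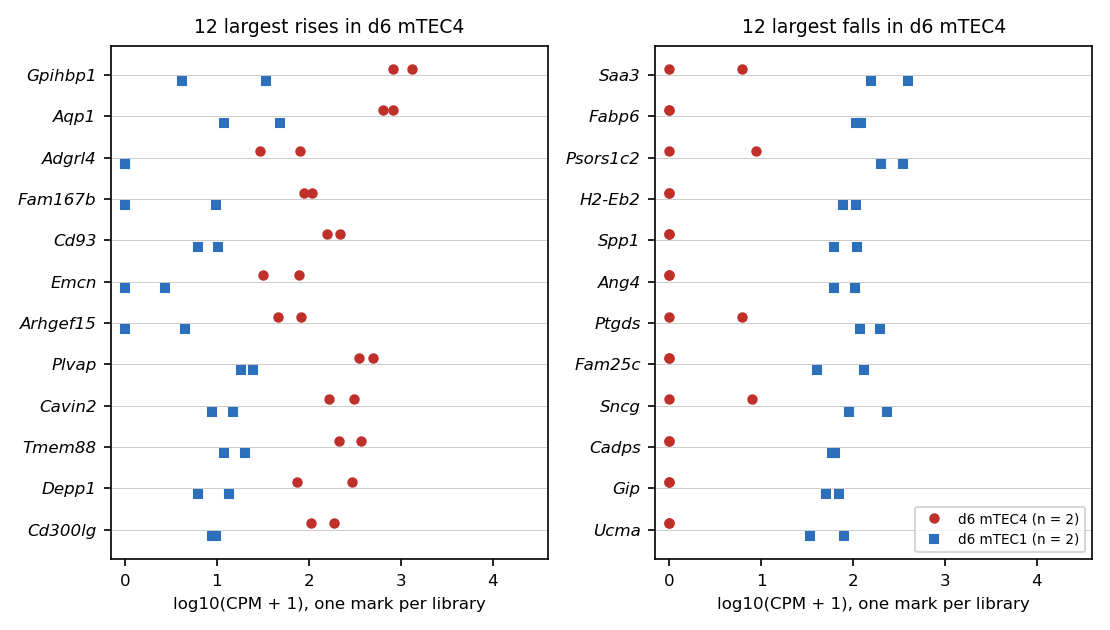
The 12 called genes with the largest rises (left panel) and the 12 with the largest falls (right panel) in d6 mTEC4, with 1 mark per library, red circles for d6 mTEC4 and blue squares for d6 mTEC1, on a log10(CPM + 1) axis. Groups are separated in all 24 genes, which the naming rule requires, and for the falls most d6 mTEC4 marks stand at 0.

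Col4a1, Col4a2 and Sparcl1 rose among the genes of basement membranes, the sheets under epithelium and endothelium. Of 18 tested members 3 rose and none fell, against 0.336% and 0.738% of all genes tested. The median log2 change was 0.80. Col4a1 and Col4a2, the paired chains of type IV collagen that vessels and epithelia lay down, had similar changes. Col4a1 stood at 1356 and 1149 CPM in d6 mTEC4 and at 174 and 295 CPM in d6 mTEC1 (log2 change 2.45, SE 0.35, limma adjusted p = 0.0102). Col4a2 stood at 1317 and 1062 CPM in d6 mTEC4 and at 175 and 277 CPM in d6 mTEC1 (log2 change 2.41, limma adjusted p = 0.0102). The 2 genes lie head to head on chromosome 8 and overlap at their starts. Sparcl1, a secreted matrix glycoprotein, stood at 298 and 299 CPM in d6 mTEC4 and at 12.5 and 38.6 CPM in d6 mTEC1 (log2 change 3.65, limma adjusted p = 0.0366). In 12 of the 18 both d6 mTEC4 libraries lay above both d6 mTEC1 libraries, against 19.9% of all genes tested, and in none below. The groups overlapped in other members, of which a pair is given here, chosen after the values were seen. Itgb4, the integrin chain of epithelial hemidesmosomes, stood at 280 and 192 CPM in d6 mTEC4 and at 232 and 282 CPM in d6 mTEC1, with overlapping groups. Lama5, a laminin chain, stood at 72.6 and 59.2 CPM in d6 mTEC4 and at 75.2 and 50.9 CPM in d6 mTEC1 and overlapped too. The list summed to 5402 and 4732 CPM in d6 mTEC4 and to 1744 and 2332 CPM in d6 mTEC1. In the libraries titled d6 mTEC2 it summed to 2317 and 9244 CPM.

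Among 19 tested genes of mesenchyme and pericytes, 1 rose and 1 fell, against 0.336% and 0.738% of all genes tested. The median log2 change was 1.5, and 16 of 19 had a change above 0, as did 44.8% of all genes tested. In 13 of the 19 both d6 mTEC4 libraries lay above both d6 mTEC1 libraries, against 19.9% of all genes tested, and in 1 below. Sparc, a collagen-binding matrix protein made by endothelial cells and fibroblasts, stood at 1579 and 1577 CPM in d6 mTEC4 and at 263 and 253 CPM in d6 mTEC1 (log2 change 2.61, SE 0.40, limma adjusted p = 0.0102). The replicates of both groups nearly coincided. Myh11, the smooth muscle myosin, went the other way, at 41.5 and 27.9 CPM in d6 mTEC4 and 163 and 174 CPM in d6 mTEC1 (log2 change -2.25, limma adjusted p = 0.0226). Acta2, the smooth muscle actin, had 0 and 3.48 CPM in d6 mTEC4 and no UMI in d6 mTEC1, too few to be tested. The collagens of fibroblasts were separated between the groups without passing. Col1a2 stood at 521 and 905 CPM in d6 mTEC4 and at 177 and 105 CPM in d6 mTEC1 (log2 change 2.32, limma adjusted p = 0.159), and Col3a1 at 565 and 1288 CPM in d6 mTEC4 and 238 and 209 CPM in d6 mTEC1.

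The d6 mTEC4 replicates differed in the summed level of both lists. Summed over the list, mesenchymal genes made up 5171 and 7002 CPM in d6 mTEC4 and 1786 and 1759 CPM in d6 mTEC1, so replicate 2 was the higher one, where replicate 1 was higher for endothelial genes. The libraries titled d6 mTEC2 held 2253 and 6486 CPM of mesenchymal genes. By gene, 21 of 26 endothelial genes were higher in replicate 1 of d6 mTEC4, where 51.7% of all genes tested were. In its replicate 2, 12 of 19 mesenchymal genes were higher, against 45.4% of all genes tested. These shares describe the libraries and were not tested.

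Of the 36 genes that rose, 25 were in no list. Those given here fall outside the naming rule and were chosen after their values were seen. Igfbp7, a secreted binding protein abundant in vascular endothelium, stood at 3300 and 3367 CPM in d6 mTEC4 and at 284 and 303 CPM in d6 mTEC1 (log2 change 3.50, limma adjusted p = 0.0102). Fabp4, the fatty acid carrier of capillaries and adipocytes, stood at 3893 and 2570 CPM in d6 mTEC4 and at 185 and 470 CPM in d6 mTEC1 (log2 change 3.42, limma adjusted p = 0.0102). Epas1, a hypoxia-inducible factor of endothelium, stood at 280 and 198 CPM in d6 mTEC4 and at 21.9 and 22.8 CPM in d6 mTEC1. In all 3 both d6 mTEC4 libraries lay above both d6 mTEC1 libraries. Rasip1, which endothelial tubes need to open, Pcolce, which helps to process collagen, Mfap2, a microfibril protein, and Lgals1, a galactose-binding lectin of stroma, also rose.

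Id1 and Id3, inhibitors of differentiation that BMP signals induce, were the members of the Wnt and BMP list that rose. They were 2 of 19 tested, with none lower, against 0.336% higher and 0.738% lower of all genes tested. Id1 stood at 259 and 202 CPM in d6 mTEC4 and at 37.6 and 33.3 CPM in d6 mTEC1 (log2 change 2.63, limma adjusted p = 0.0289). Id3 stood at 469 and 543 CPM in d6 mTEC4 and at 201 and 140 CPM in d6 mTEC1 (log2 change 1.58, limma adjusted p = 0.0309). The list's median of -0.18 lay close to that of all genes. Id2 overlapped between the groups, at 130 and 66.2 CPM in d6 mTEC4 and 67.4 and 73.7 CPM in d6 mTEC1. The ligand Bmp7 stood at 18.1 and 0 CPM in d6 mTEC4 and at 36.0 and 54.4 CPM in d6 mTEC1 and did not pass.

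Aire, Fezf2 and Fgf21 fell in d6 mTEC4. They belong to the list of genes of the Aire stage of mTEC. Of 17 tested members 3 fell and none rose, against 0.738% and 0.336% of all genes tested. The median log2 change was -1.88, and 17 of 17 had a change below 0, as did 55.2% of all genes tested. Aire (chromosome 10, 78030022 to 78043610, minus strand) stood at 33.7 and 24.4 CPM in d6 mTEC4, against 434 and 556 CPM in d6 mTEC1. Both d6 mTEC4 libraries lay far below both d6 mTEC1 libraries. The log2 change was -4.02 (SE 0.36, limma adjusted p = 0.000517). Fezf2, a regulator that makes tissue antigens in a separate programme from Aire, stood at 18.1 and 17.4 CPM in d6 mTEC4 and at 210 and 207 CPM in d6 mTEC1 (log2 change -3.43, SE 0.51, limma adjusted p = 0.0102). Fgf21, a hormone of the fibroblast growth factor family, stood at 20.7 and 20.9 CPM in d6 mTEC4 and at 125 and 144 CPM in d6 mTEC1 (log2 change -2.59, limma adjusted p = 0.0333). In all 3 genes the replicates lay close together.

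Other members of the Aire-stage list did not pass. Hdc, the histamine-making enzyme, stood at 36.3 and 10.4 CPM in d6 mTEC4 and at 138 and 109 CPM in d6 mTEC1 (log2 change -2.53, limma adjusted p = 0.0641). Tnfrsf11a, the receptor RANK through which mTEC mature, stood at 18.1 and 0 CPM in d6 mTEC4 and at 26.6 and 26.3 CPM in d6 mTEC1. Cd80, a costimulatory ligand, overlapped at 5.18 and 17.4 CPM in d6 mTEC4 and 14.1 and 12.3 CPM in d6 mTEC1. Cd52, a surface glycoprotein also abundant in lymphocytes, overlapped at 207 and 526 CPM in d6 mTEC4 and 338 and 388 CPM in d6 mTEC1. The list summed to 855 and 1407 CPM in d6 mTEC4 and to 3136 and 3263 CPM in d6 mTEC1, with the groups well apart.

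Tissue-restricted antigens are genes of other organs that mTEC transcribe. Of 19 tested genes 4, Fabp6, Ang4, Gip and Apoc3, fell in d6 mTEC4 and none rose, against 0.738% and 0.336% of all genes tested. The median log2 change was -2.35. Of these 19, 7 had no UMI in either d6 mTEC4 library and 8 passed the filter only through d6 mTEC1, so the figures describe the list. Fabp6, a bile acid carrier of the ileum, had no UMI in d6 mTEC4 and stood at 107 and 121 CPM in d6 mTEC1, at least 25.4-fold lower in d6 mTEC4 (limma adjusted p = 0.0280). Ang4, an antimicrobial ribonuclease of Paneth cells, had none in d6 mTEC4 and stood at 61.1 and 103 CPM in d6 mTEC1, at least 18.2-fold lower (limma adjusted p = 0.0102). Gip, a gut hormone, had none in d6 mTEC4 and stood at 50.1 and 70.1 CPM in d6 mTEC1, at least 13.4-fold lower (limma adjusted p = 0.0442). Apoc3, an apolipoprotein of liver, had none in d6 mTEC4 and stood at 26.6 and 31.6 CPM in d6 mTEC1, at least 6.5-fold lower (limma adjusted p = 0.0394). The d6 mTEC1 levels of all 4 lie above the 4.46 CPM that a count of 0 in d6 mTEC4 allows. The list also held genes that did not differ in this way. Reg3g, an antimicrobial lectin of gut, overlapped at 547 and 185 CPM in d6 mTEC4 and 649 and 158 CPM in d6 mTEC1. Csn2, the milk protein beta-casein, stood at 259 and 38.3 CPM in d6 mTEC4 and at 392 and 393 CPM in d6 mTEC1 without passing (limma adjusted p = 0.204).

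The other genes among the 12 largest falls were in no list of antigens. Saa3, an acute-phase protein with close paralogs, stood at 5.18 and 0 CPM in d6 mTEC4, which is 2 UMIs, and at 396 and 158 CPM in d6 mTEC1. The pooled level was 95.5 times higher in d6 mTEC1, with an exact counting interval of 26.2 to 792 (limma adjusted p = 0.00910). Psors1c2, a gene of cornifying skin, stood at 7.78 and 0 CPM in d6 mTEC4 and at 346 and 198 CPM in d6 mTEC1 (limma adjusted p = 0.0221). Sncg, a synuclein of neurons, stood at 0 and 6.96 CPM in d6 mTEC4 and at 233 and 89.4 CPM in d6 mTEC1 (limma adjusted p = 0.0110). In each of these 3 genes 1 library of d6 mTEC4 had no UMI at all. Ptgds, a prostaglandin synthase of brain and testis, stood at 5.18 and 0 CPM in d6 mTEC4 and at 119 and 195 CPM in d6 mTEC1. Spp1, the bone matrix protein osteopontin, had no UMI in d6 mTEC4 and stood at 61.1 and 109 CPM in d6 mTEC1, at least 18.7-fold lower in d6 mTEC4. Cadps, a factor of vesicle release in neurons and endocrine cells, was at least 13.5-fold lower and Ucma, a secreted protein of cartilage, at least 12.2-fold lower. Fam25c, at least 18.4-fold lower, completes the group with the MHC gene H2-Eb2.

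Of the 79 genes that fell, 66 were in no list, and a few are named here after their values were seen. The hormones oxytocin (Oxt) and galanin (Gal), the cytokines Il13 and Il12a, the chemokine Cxcl2, the liver-made serum protein Igfals and the intestinal lectin Itln1 were among them. Cdx1, a homeobox factor of intestinal epithelium, stood at 18.1 and 6.96 CPM in d6 mTEC4 and at 213 and 230 CPM in d6 mTEC1 (log2 change -4.08, SE 0.48, limma adjusted p = 0.00605). It was at 12.8 and 14.4 CPM at E15 and at 155 and 150 CPM at E17, so the d6 mTEC4 level was near that at E15. Aire had a like order, with 45.7 and 35.2 CPM at E15 and 362 and 383 CPM at E17.

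**Figure D3:**
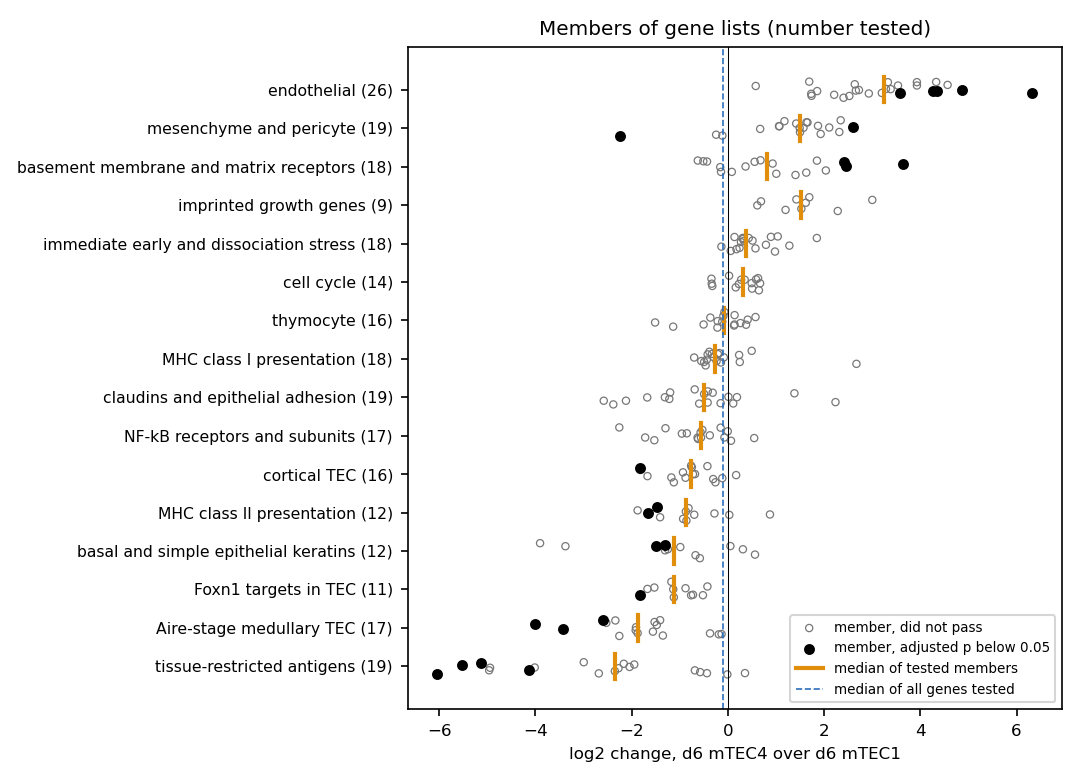
Each circle is 1 tested member of a gene list at its log2 change of d6 mTEC4 over d6 mTEC1, filled where the adjusted limma p was below 0.05, with an orange bar at the list's median and a dashed line at the median of all genes tested (-0.10). Endothelial members lie to the right with a median of 3.24, and Aire-stage members and tissue-restricted antigens lie to the left with medians of -1.88 and -2.35.

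MHC class II genes, through which antigen-presenting cells show peptides to CD4 T cells, included 2 that fell in d6 mTEC4, Cd74 and H2-DMb2. Of 12 tested members 2 fell and none rose, against 0.738% and 0.336% of all genes tested. The median log2 change was -0.87. In 10 of 12 both d6 mTEC4 libraries lay below both d6 mTEC1 libraries, against 25.6% of all genes tested. Cd74, the invariant chain that escorts class II molecules, stood at 3422 and 4426 CPM in d6 mTEC4 and at 8939 and 12954 CPM in d6 mTEC1 (log2 change -1.47, SE 0.32, limma adjusted p = 0.0499). This call was lost with median of ratios scaling, at a pseudocount of 0.5, without a filter and with the d6 mTEC2 libraries added. It was also lost when either E17 library was left out. H2-DMb2, a chain of the peptide exchanger H2-DM, stood at 119 and 83.6 CPM in d6 mTEC4 and at 365 and 279 CPM in d6 mTEC1 (log2 change -1.66, limma adjusted p = 0.0442). H2-Eb2, an atypical class II beta chain outside the list, had no UMI in d6 mTEC4 and stood at 76.8 and 107 CPM in d6 mTEC1. It was at least 20.4-fold lower (limma adjusted p = 0.00654). MHC genes are close paralogs, and reads could be split among them.

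The classical class II chains were separated without passing. H2-Aa stood at 5169 and 5157 CPM in d6 mTEC4 and at 9611 and 8622 CPM in d6 mTEC1 (log2 change -0.82, limma adjusted p = 0.143). Ciita, the master regulator of class II genes, stood at 2.59 and 20.9 CPM in d6 mTEC4 and at 29.8 and 40.3 CPM in d6 mTEC1, also without passing. Ctss, the protease that trims the invariant chain in most antigen-presenting cells, overlapped at 161 and 111 CPM in d6 mTEC4 and 166 and 103 CPM in d6 mTEC1. The list summed to 20722 and 22960 CPM in d6 mTEC4 and to 42197 and 44286 CPM in d6 mTEC1. Of 18 class I presentation genes none passed, with a median of -0.26. B2m, the light chain of class I molecules, overlapped at 3059 and 2706 CPM in d6 mTEC4 and 2693 and 3453 CPM in d6 mTEC1.

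Foxn1 (chromosome 11, 78357577 to 78386558, minus strand), the gene the series is about, stood at 251 and 348 CPM in d6 mTEC4 and at 434 and 416 CPM in d6 mTEC1. Both d6 mTEC4 libraries lay below both d6 mTEC1 libraries. The log2 change of -0.52 (SE 0.32) did not pass (limma adjusted p = 0.507), and an exact two-sided permutation test of 2 against 2 cannot go below 0.333. The embryonic libraries held 1065 and 892 CPM at E15 and 736 and 547 CPM at E17, above both day 6 groups.

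Among 11 tested genes listed as Foxn1 targets in TEC, 1 fell and none rose, against 0.738% and 0.336% of all genes tested. The median log2 change was -1.12. The list holds Foxn1 itself beside its targets, so these figures include it. Tbata, a thymus and brain protein that restrains TEC proliferation, stood at 2429 and 1062 CPM in d6 mTEC4 and at 5163 and 6346 CPM in d6 mTEC1 (log2 change -1.83, SE 0.35, limma adjusted p = 0.0297). It was also the single gene that fell of 16 cortical TEC genes, none of which rose. Their median was -0.76 and 15 of 16 had a change below 0, as did 55.2% of all genes tested. The lists share genes, Tbata, Psmb11, Prss16, Ccl25 and Dll4 among them, so their figures are not separate results. The Tbata call was lost under DESeq2, without a filter, with the 4 compared libraries alone and with the d6 mTEC2 libraries added. It was also lost when either E17 library was left out. Prss16, the thymus-specific serine protease of cTEC, stood at 3536 and 2403 CPM in d6 mTEC4 and at 5857 and 7398 CPM in d6 mTEC1 (log2 change -1.17, limma adjusted p = 0.105). Psmb11, the catalytic subunit of the cTEC proteasome, stood at 153 and 97.5 CPM in d6 mTEC4 and at 193 and 226 CPM in d6 mTEC1 (log2 change -0.76, limma adjusted p = 0.329). Ccl25, which draws precursors into the thymus, stood at 2100 and 797 CPM in d6 mTEC4 and at 3305 and 5152 CPM in d6 mTEC1 (log2 change -1.67, limma adjusted p = 0.0619). Each was separated between the groups, and in each replicate 2 was the lower of the d6 mTEC4 libraries. Dll4, the Notch ligand that commits precursors to the T lineage, stood at 135 and 136 CPM in d6 mTEC4 and at 177 and 354 CPM in d6 mTEC1. Il7, the survival cytokine of thymocytes, overlapped at 111 and 55.7 CPM in d6 mTEC4 and 58.0 and 84.2 CPM in d6 mTEC1.

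Summed over the list, cortical genes made up 10462 and 6163 CPM in d6 mTEC4 and 17337 and 22067 CPM in d6 mTEC1, so cortical transcripts were abundant in both groups titled as medullary.

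The promoters of Tbata and Psmb11, both of the Foxn1 target list and both lower in d6 mTEC4, are shown. Only Tbata passed, and a difference between the changes of these genes was not tested. The core letters of the Foxn1 site, GACGC, were searched on both strands in the same RefSeq windows and are in capitals.
Tbata, chr10:61171714-61172013, plus strand: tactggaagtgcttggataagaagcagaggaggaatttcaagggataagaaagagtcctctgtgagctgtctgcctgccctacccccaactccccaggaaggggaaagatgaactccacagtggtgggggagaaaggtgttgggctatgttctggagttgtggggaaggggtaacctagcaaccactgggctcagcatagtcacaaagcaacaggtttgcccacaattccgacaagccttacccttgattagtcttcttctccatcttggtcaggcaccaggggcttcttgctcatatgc
Psmb11, chr14:54625060-54625359, plus strand: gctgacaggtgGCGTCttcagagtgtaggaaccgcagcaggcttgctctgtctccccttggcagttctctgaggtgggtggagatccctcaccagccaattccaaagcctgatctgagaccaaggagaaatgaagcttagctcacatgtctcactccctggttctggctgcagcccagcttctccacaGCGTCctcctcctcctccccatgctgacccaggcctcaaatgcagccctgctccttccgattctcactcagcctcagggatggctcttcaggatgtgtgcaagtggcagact
Tbata held no match in this window and Psmb11 held 2. The letters were in 24 of 86 (27.9%) promoters of the lower genes, 16 of 28 (57.1%) promoters of the higher genes, 44.8% of promoters of all genes tested and 27.2% of all promoters in the table.

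The keratins Krt8 and Krt17 fell in d6 mTEC4. Of 12 tested keratins 2 fell and none rose, against 0.738% and 0.336% of all genes tested. The median log2 change was -1.12. Since 3 of the 12 passed the filter only through d6 mTEC1 and 2 had no UMI in either d6 mTEC4 library, the median describes the list and adds no support to it. Krt8, which cTEC and many mTEC carry, stood at 1724 and 1720 CPM in d6 mTEC4 and at 4396 and 5324 CPM in d6 mTEC1 (log2 change -1.49, SE 0.29, limma adjusted p = 0.0312). Krt17, a keratin of activated and basal epithelium, stood at 1843 and 1375 CPM in d6 mTEC4 and at 3943 and 3912 CPM in d6 mTEC1 (log2 change -1.30, limma adjusted p = 0.0386). Both calls were lost with median of ratios scaling, without a filter, with the d6 mTEC2 libraries added and when either E17 library was left out. The Krt17 call was also lost at a pseudocount of 0.5 and with the replicate block. Krt18, the partner of Krt8, stood at 4448 and 3677 CPM in d6 mTEC4 and at 7147 and 9019 CPM in d6 mTEC1 without passing (limma adjusted p = 0.0988).

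Other keratins had other patterns, none of which passed. Krt5, of basal and many medullary cells, stood at 218 and 299 CPM in d6 mTEC4 and at 378 and 389 CPM in d6 mTEC1 (log2 change -0.58, limma adjusted p = 0.448). Its partner Krt14 overlapped, at 355 and 219 CPM in d6 mTEC4 and 262 and 277 CPM in d6 mTEC1. Krt10, which marks keratinizing cells, was the higher in d6 mTEC4, at 62.2 and 48.7 CPM against 29.8 and 31.6 CPM in d6 mTEC1 (log2 change 0.81, limma adjusted p = 0.449). The cornified keratinocyte list that holds it lay mostly the other way, with no call among 11 tested members. Their median was -1.72, with 8 below 0 and 3 above, though 5 of the 11 passed the filter only through d6 mTEC1. That list summed to 480 and 439 CPM in d6 mTEC4 and to 1983 and 584 CPM in d6 mTEC1. Pdpn, a surface protein of some mTEC and of stroma, stood at 31.1 and 45.3 CPM in d6 mTEC4 and at 14.1 and 3.51 CPM in d6 mTEC1 (log2 change 2.11, limma adjusted p = 0.225).

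Of 19 claudin and epithelial adhesion genes none passed, with a median of -0.49. In 11 both d6 mTEC4 libraries lay below both d6 mTEC1 libraries, against 25.6% of all genes tested, and in 2 above. Epcam, with the values given above, had a log2 change of -0.32 (limma adjusted p = 0.738). Cldn4, a claudin of mature mTEC, stood at 10.4 CPM in both d6 mTEC4 libraries and at 72.1 and 52.6 CPM in d6 mTEC1 (limma adjusted p = 0.124). Of 17 NF-kB receptors and subunits, the pathway by which mTEC mature, none passed, with a median of -0.57. Cd40, a receptor that feeds it, stood at 49.3 and 41.8 CPM in d6 mTEC4 and at 149 and 121 CPM in d6 mTEC1 (log2 change -1.53, limma adjusted p = 0.0609). Relb, its subunit, stood at 124 and 48.7 CPM in d6 mTEC4 and at 164 and 230 CPM in d6 mTEC1. These genes were separated between the groups. In that direction so were 9 of the 17 NF-kB genes, with 1 in the other, against 25.6% of all genes tested.

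Lists for other cells that could enter a TEC sort gave no calls. None of 16 tested thymocyte genes passed, with a median of -0.08, and the list summed to 1643 and 1132 CPM in d6 mTEC4 and 1487 and 1466 CPM in d6 mTEC1. All 16 were detected in both groups. None of 15 myeloid and dendritic cell genes passed, with a median of 0.31, and 7 of them lay higher in both d6 mTEC4 libraries, against 19.9% of all genes tested. That list summed to 2061 and 2371 CPM in d6 mTEC4 and to 1582 and 1392 CPM in d6 mTEC1, and these sums did not overlap. The tuft and muscle lists, which are rich in the libraries titled d6 mTEC2, had 8 tested members each and no call. None of 14 cell cycle genes and none of 18 immediate early genes passed, with medians of 0.31 and 0.38. Of these, 5 cell cycle and 8 immediate early genes lay higher in both d6 mTEC4 libraries, against 19.9% of all genes tested. A log2 change above 0 was found in 11 of 14 cell cycle and 17 of 18 immediate early genes, and in 44.8% of all genes tested. The immediate early genes, which dissociation can induce, summed to 3810 and 4582 CPM in d6 mTEC4 and to 3316 and 3065 CPM in d6 mTEC1. These sums did not overlap, and the part of the immediate early genes in the results was not tested.

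**Figure D4:**
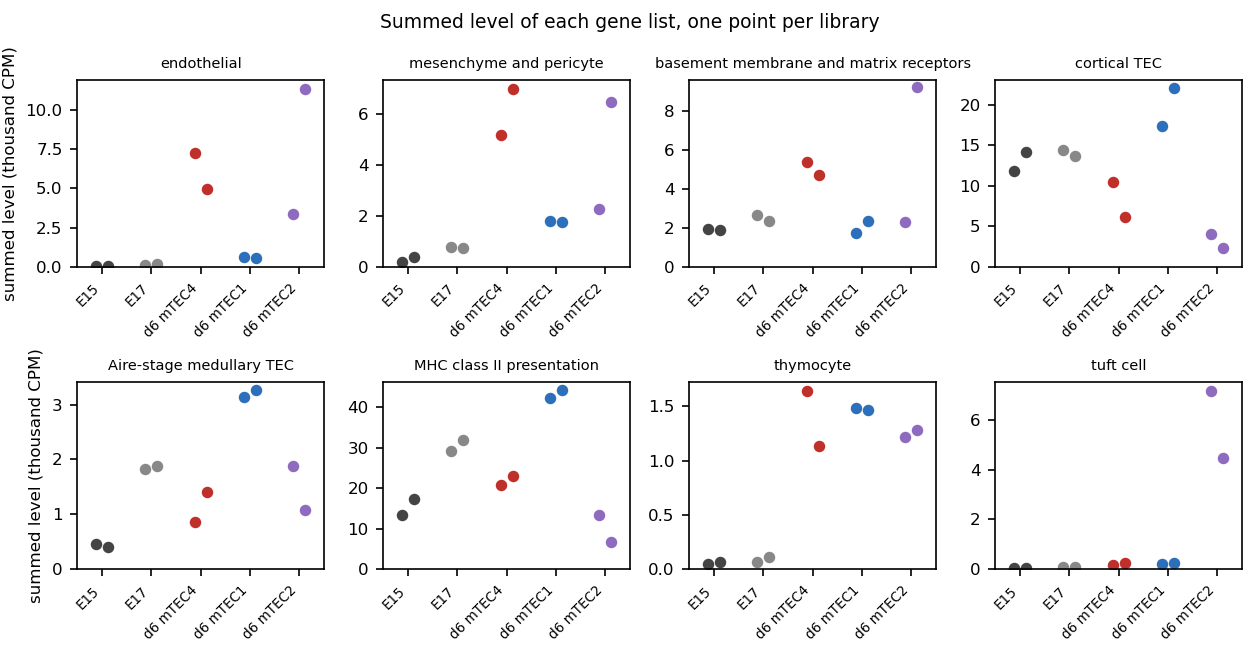
Summed CPM of 8 gene lists with 1 point per library, for E15, E17, d6 mTEC4 (red), d6 mTEC1 (blue) and d6 mTEC2 (purple), on vertical axes that start at 0 and differ between panels. Endothelial genes reach 7268 and 4962 CPM in d6 mTEC4 and 630 and 565 CPM in d6 mTEC1, while thymocyte genes lie between 1132 and 1643 CPM in both groups.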

How the data were processed

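RNA of sorted thymic cells was counted by MARS-seq. STAR 2.4.2a, HTSeq, DESeq2, cutadapt, bcl2fastq and the mm10 build are listed in the submitters' processing notes. Which step each served, and the strand of counting, is not given in the sources used here, so a gene and its antisense partner (Aire and Dnmt3l, Plvap and Gtpbp3, Tmem88 and Naa38, Igfbp7 and Polr2b, Col4a1 and Col4a2) may share reads.

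The authors deposited a table of normalized signal values for 15273 genes, each library summing to 100. Dividing each library by its smallest step gave whole UMIs (100% of values whole, largest deviation 3.64e-12), so totals and CPM are known. Values were scaled to 570253 UMIs, the median library total, because the deposited unit was a percentage and not the UMIs first assumed.

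Genes with at least 5 scaled UMIs in at least 2 libraries were tested with limma 3.58.1 (R 4.3.3) on log2(scaled UMIs + 1), two-sided, Benjamini-Hochberg adjusted over all genes, threshold 0.05. This scale understates changes of low genes. The fit held 8 libraries: d6 mTEC4, d6 mTEC1, E15 and E17 (2 each), with array weights of 0.551 for day 6 and 1.81 for embryonic libraries. The d6 mTEC2 libraries were left out. The method was tested on simulated data. A gene that missed the threshold is not thereby shown to be equal in both groups. Alternatives used edgeR 4.0.16, DESeq2 1.42.0 and other scalings, filters, pseudocounts and libraries. A fit with the d6 mTEC2 libraries and no weights was chosen after seeing the data.

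Named genes were Foxn1, Psmb11, Prss16, Aire, Fezf2, Krt5, Krt8, Krt10, Pdpn and Trpm5, the 12 largest rises and 12 largest falls, and up to 5 genes per described list with the smallest adjusted p. Others were named after their values were seen. Of 544 genes in 34 lists, 506 were in the table. The members and lists were chosen with earlier results of these data known. Coordinates are from GENCODE M21 (GRCm38), which held 14991 of the symbols, and promoters from RefSeq (GRCm38.p6). A gene of the lists is not reported here.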

Additional observations from a re-analysis of the deposited data

How the results depend on the processing

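None of the 41 named genes that passed changed direction under any alternative that gave it a value. No called gene overlapped between the groups, so an alternative that keeps the scaling could not reverse one. The lack of reversals therefore adds no support. The other genes named were not followed. The 115 calls (36 higher, 79 lower in d6 mTEC4) became 67 (43 and 24) with the 4 compared libraries alone, 4 (0 and 4) with the d6 mTEC2 libraries added and 154 (45 and 109) when they were added without weights. They became 692 (215 and 477) without weights, 80 (23 and 57) and 263 (121 and 142) at pseudocounts of 0.5 and 5, and 40 (15 and 25) without a filter. The edgeR quasi-likelihood test gave 301 (153 and 148) and DESeq2 199 (116 and 83). The remaining alternatives in filter, scaling and moderation gave 135 to 144. Leaving out 1 library at a time gave 0 to 858 calls in all, 0 to 133 higher and 0 to 725 lower, and the lone library of a group was then assumed to vary like the others. Of 41 named calls, 27 held at a pseudocount of 0.5, 20 without a filter, 41 under edgeR and 39 under DESeq2. The causes were not tested. Same-numbered libraries did not deviate together (correlations of -0.0508 to 0.00809, and -0.00556 between d6 mTEC4 and d6 mTEC1). With 2 libraries per group this cannot show whether they share an animal. The replicate block gave 77 calls (27 and 50, of which 75 shared). The median change of endothelial genes stayed between 2.56 and 3.41 and that of Aire-stage genes between -2.47 and -1.30 over the alternatives. Depth limits genes at or under 3 UMIs in a group, among them 47 of the 79 lower genes.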

Other observations

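Imprinted growth genes, which are active in fetal and neonatal tissue, were on the higher side in d6 mTEC4 without passing the test. Of 9 tested members none was called by limma, all 9 had a log2 change above 0 with a median of 1.53, and in 8 both d6 mTEC4 libraries lay above both d6 mTEC1 libraries, against 19.9% of all genes tested. H19, a non-coding RNA expressed from the maternal copy, stood at 664 and 864 CPM in d6 mTEC4 and at 331 and 207 CPM in d6 mTEC1 (log2 change 1.53, limma adjusted p = 0.0669). Mest, expressed from the paternal copy, stood at 215 and 341 CPM in d6 mTEC4 and at 15.7 and 64.9 CPM in d6 mTEC1 (log2 change 3.0, limma adjusted p = 0.0901). Igf2, a fetal growth factor, stood at 407 and 651 CPM in d6 mTEC4 and at 224 and 223 CPM in d6 mTEC1 (log2 change 1.20, limma adjusted p = 0.439). The list summed to 1737 and 2281 CPM in d6 mTEC4 and to 783 and 649 CPM in d6 mTEC1, with replicate 2 of d6 mTEC4 the higher, as for mesenchymal genes. It summed to 3656 and 4991 CPM in the libraries titled d6 mTEC2, so the level was not particular to the d6 mTEC4 title. In the embryonic libraries it summed to 579 and 790 CPM at E15 and to 516 and 591 CPM at E17. The list was chosen with earlier results of these data known, and the part of stromal RNA in these levels was not tested.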
